A study of Mus musculus with 8 samples.

Results

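Gdf15, Phlda3, Cdkn1a, Mdm2, Ccng1 and Trp53inp1, 6 known targets of the transcription factor p53, and Nupr1, Ddit3, Atf4 and Trib3, 4 genes of the integrated stress response, were followed in cultured intestinal organoids. The 10 genes were selected on measured values of these libraries, by their symbols, out of 32285 genes in the deposited feature tables. Their symbols stood on 11 rows, because Ddit3 had a second row (ENSMUSG00000116429) that held 0 UMIs in all 8 libraries. The row ENSMUSG00000025408 was used for Ddit3. Because earlier results chose the genes, their levels and differences are given as a description, with no test.

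The study measured RNA of mouse intestine in 8 libraries, of which 4 were droplet single-cell libraries and 4 were 10x Visium sections. The control organoids grew alone and the cocultured organoids grew with a partner that the labels do not name. Both came from C57BL/6 small intestine at passage 1, with 16 wells pooled per culture and sorted epithelial cells, and each culture was 1 library. The small and large intestinal cell libraries, also 1 each, came from C57BL/6 and Lgr5-eGFP-ires-CreERT2 mice of that background. They were sorted to enrich LGR5+ stem cells and CD31+ PDPN+ LYVE1+ lymphatic endothelial cells, so they do not mirror the tissue. The sections were technical duplicates, with 2 for each tissue, and their titles begin with WT, read here as wild type. The age and number of animals were not given in the sources used here. With 1 library per group no difference was tested, and every interval below is a 95% interval that covers counting error only, not the spread between cultures or animals.

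After filtering, 538 of 818 control and 1028 of 1233 cocultured barcodes were kept, with medians of 73663.5 and 86295 UMIs (unique molecular identifiers, counted RNA molecules) per cell. The limit of 20% mitochondrial UMIs was exceeded by 211 control and 176 cocultured barcodes, and the kept cells had medians of 6.23% and 5.67%. Barcodes found in both organoid libraries numbered 0, and in both tissue libraries 25. The organoids matched their epithelial label, with 96.8% and 97.7% of cells Epcam-positive (at least 1 UMI of Epcam, an epithelial adhesion molecule). Of the defining markers of other cells, Col1a1, Col3a1, Dcn and Lum of fibroblasts and Ccl21a, Mmrn1 and Reln of lymphatic endothelium were at 0 UMIs in both organoid libraries. The other 3 of 6 lymphatic markers held 84 UMIs in 57 control cells and 343 UMIs in 198 cocultured cells, 1.94 and 3.54 CPM for the list. The 6 blood endothelial markers held 152 UMIs in 18 control cells and 25 UMIs in 17 cocultured cells, with Cdh5, Kdr, Cldn5 and Emcn at 0 in the cocultured library. The 6 fibroblast markers summed to 2 and 3 UMIs and the 6 smooth muscle markers to 8 and 7. The part of these UMIs in the results was not tested. The reference cells from tissue were 1821 small and 5016 large intestinal Epcam-positive cells, with medians of 24418 and 24340.5 UMIs. In these cells the 8 immune markers summed to 3473 and 5161 CPM (UMIs of a gene per 1000000 UMIs of the group), against 0.947 and 0.547 in control and cocultured organoids. The 8 Paneth markers summed to 111243 CPM in the small intestinal cells, against 6171 and 7580 in the organoids, and 8 enterocyte markers to 3964 CPM against 8174 and 11258. Goblet markers (24329 CPM against 2427 and 2405), tuft markers (394 against 12.0 and 7.83) and stem cell markers (1090 against 496 and 331) were also lower in the organoids, and cycling markers (851 against 1601 and 1577) were higher. Enteroendocrine markers, at 370.4 CPM in the tissue cells, differed between the cultures, at 122 and 487 CPM. The part of these differences in cell makeup in the members' distance from tissue was not tested.

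As background, p53 is held low by the ubiquitin ligase encoded by its own target Mdm2, and when DNA damage or other stress frees it, it switches on genes of cell cycle arrest and repair. The integrated stress response starts from kinases that phosphorylate the translation factor eIF2 on amino acid shortage, protein misfolding, haem shortage or viral RNA. Overall translation then slows, while the mRNA of ATF4 is translated more, and ATF4 turns on genes of amino acid supply together with Ddit3 and Trib3. In the intestinal epithelium Cdkn1a is also known from cells that leave the cycle as they differentiate, and GDF15 is a secreted stress hormone that both arms can switch on.

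The promoter windows of the members carried letters of both arms, and they are shown because members of both arms were seen in the same cells. Windows from 250 bases before to 50 bases after the start were found in RefSeq (GRCm38.p6) for 9 of the 10 members, 11 windows in all, but not for Trp53inp1. The p53 half-site stood in 3 windows, those of Cdkn1a, Mdm2 and Ccng1, and the amino acid response core TGATGNAA in 2, those of Nupr1 and Trib3. Both strands were searched, and the half-site, being nearly its own reverse complement, matched on both at each place. Over all 32851 windows of that length, 8.36% held a half-site and 3.97% a core. The stretches around the matches follow, on the strand of the gene and 5′ to 3′, with the matched letters in capitals.
Cdkn1a, chr17:29090886-29090957 (+): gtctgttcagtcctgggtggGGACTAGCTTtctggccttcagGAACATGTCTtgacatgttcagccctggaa
Mdm2, chr10:117710915-117710964 (-): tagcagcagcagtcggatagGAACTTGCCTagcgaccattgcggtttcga
Ccng1, chr11:40755442-40755491 (-): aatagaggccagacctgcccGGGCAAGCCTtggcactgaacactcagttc
Nupr1, chr7:126625553-126625600 (-): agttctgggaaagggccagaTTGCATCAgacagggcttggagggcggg
Trib3, chr2:152344028-152344057 (-): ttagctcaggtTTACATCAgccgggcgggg
In Cdkn1a the 2 half-sites began 73 and 51 bases before the start, and in Mdm2 and Ccng1 the single ones began 186 and 185 bases before it. In Nupr1 and Trib3 the core lies on the strand opposite to the gene, so the printed capitals are its reverse complement. It began 110 bases before the start in Nupr1 and at base 15 after it in Trib3. A match is a description of letters and not a bound site, and no window of Gdf15, Phlda3, Ddit3 or Atf4 held either motif.

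Gdf15 and Trib3 were higher in both organoid libraries than in every tissue reference. Gdf15, the secreted stress hormone, was at 38.8 CPM (36.9 to 40.7) in control and 46.3 CPM (45.0 to 47.7) in cocultured organoids. Epcam-positive cells held 2.93 CPM (2.47 to 3.46) in small intestine and 3.10 CPM (2.79 to 3.43) in large intestine, intervals that overlap. Over all spots of the sections, Gdf15 was at 0.903 and 1.2 CPM (small intestine) and at 3.76 and 4.52 CPM (large intestine). Both organoid libraries lay above all 6 references. In summed UMIs control organoids were 13.2-fold (11.1 to 15.8) and cocultured organoids 15.8-fold (13.4 to 18.8) above the small intestinal cells. With each cell thinned to 2000 UMIs, the means were 0.131 and 0.116 UMIs per organoid cell against 0.0040 per small intestinal cell. At that depth the tissue cells' Gdf15 and Trib3 could not be told from background, so the folds of both genes over tissue cells describe the counts and may understate the difference. Trib3, a pseudokinase that ATF4 and CHOP induce, was at 19.5 CPM (18.2 to 20.8) in control and 16.5 CPM (15.7 to 17.3) in cocultured organoids. Epcam-positive cells held 1.76 CPM (1.40 to 2.17) in small intestine and 0.235 CPM (0.156 to 0.339) in large intestine. The sections ordered the tissues the same way, with 5.62 and 7.34 CPM against 0.509 and 0.525 CPM. The control organoids were 11.1-fold (8.86 to 14.0) above small and 83.0-fold (57.0 to 126) above large intestinal cells, the latter resting on 28 UMIs in the large intestinal cells.

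**Figure D1:**
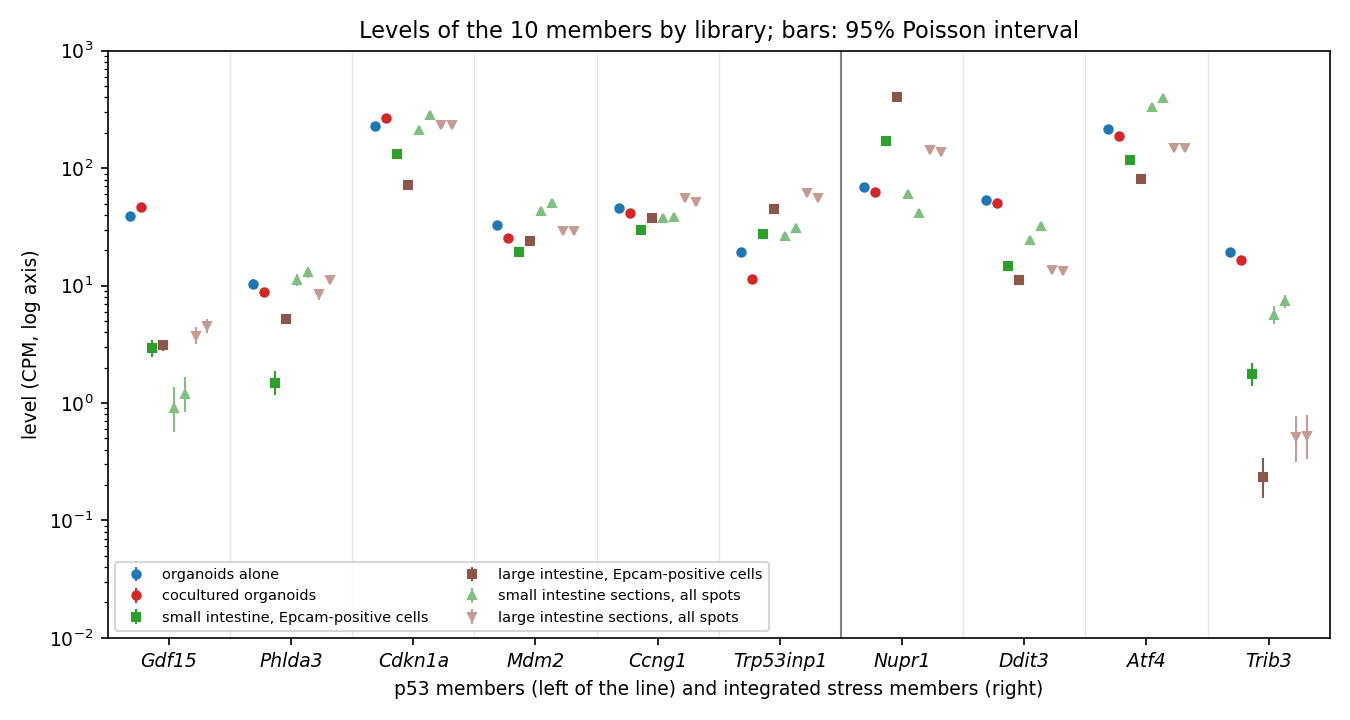
Level of each member in CPM (log axis) in the control and cocultured organoid libraries (circles), in Epcam-positive cells of small and large intestinal tissue (squares) and over all spots of each Visium section (triangles), with 95% Poisson intervals. Gdf15 and Trib3 of the organoids, at 16.5 to 46.3 CPM, lie above all tissue points, while Nupr1 and Trp53inp1 do not.

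Phlda3 and Ddit3 were also higher in the organoids than in the epithelial cells of tissue in summed UMIs, though less evenly. Phlda3, whose protein competes with AKT for membrane lipids, was at 10.3 CPM (9.37 to 11.3) in control and 8.81 CPM (8.23 to 9.42) in cocultured organoids. Epcam-positive cells held 1.49 CPM (1.16 to 1.87) in small intestine and 5.22 CPM (4.82 to 5.65) in large intestine. In the sections, whose spots also hold muscle and stroma, it was at 8.41 to 13.0 CPM, which brackets the organoids. With cells thinned to 2000 UMIs, cocultured Phlda3 was not above large intestinal cells, at means of 0.0214 against 0.0223 UMIs per cell. Ddit3, which encodes the transcription factor CHOP, was at 53.7 CPM (51.5 to 55.9) in control and 50.4 CPM (49 to 51.9) in cocultured organoids. Epcam-positive cells held 14.7 CPM (13.7 to 15.8) in small intestine and 11.1 CPM (10.5 to 11.7) in large intestine, and the sections 13.3 to 32.3 CPM. Both organoid libraries were therefore above every tissue value of Ddit3.

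In summed UMIs, Cdkn1a, Atf4, Mdm2 and Ccng1 were also above the epithelial cells of tissue, and within or below the range of the sections. Cdkn1a encodes the cyclin-dependent kinase inhibitor p21 and was at 231 CPM in control and 265 CPM in cocultured organoids. It was at 131 and 71.4 CPM in small and large intestinal Epcam-positive cells, and at 210 to 284 CPM in the sections. Atf4, the transcription factor of the response, was at 216 and 189 CPM in control and cocultured organoids, against 118 and 80.3 CPM in the tissue cells. The small intestinal sections had more Atf4 than the organoids, at 334 and 393 CPM, and the large intestinal ones less, at 149.9 and 147 CPM. Mdm2 was at 32.9 and 25.7 CPM in the organoids, 19.4 and 24.0 CPM in the tissue cells and 29.3 to 50.6 CPM in the sections. Ccng1, which encodes cyclin G1 and works with protein phosphatase 2A, was at 46.1 and 41.3 CPM in the organoids. Its tissue cells were at 29.8 and 37.3 CPM and its sections at 37.9 to 55.5 CPM. With cells thinned to 2000 UMIs, cocultured Ccng1 was below large intestinal Epcam-positive cells, at means of 0.0661 against 0.0703 UMIs per cell.

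Nupr1 and Trp53inp1 had more summed UMIs in tissue epithelial cells than in the organoids. Nupr1, a small stress-induced chromatin protein, was at 69.2 CPM (66.8 to 71.8) in control and 62.3 CPM (60.8 to 63.9) in cocultured organoids. Epcam-positive cells held 172 CPM in small intestine and 404 CPM in large intestine, and the large intestinal sections, at 143 and 137 CPM, were also above the organoids. The small intestinal sections were below them, at 59.8 and 41.6 CPM. Trp53inp1, which encodes a p53-binding protein of autophagy and cell death, was at 19.5 CPM (18.2 to 20.8) in control and 11.3 CPM (10.6 to 12.0) in cocultured organoids. All tissue values were higher, from 26.6 CPM in a small intestinal section to 61.0 CPM in a large intestinal one. With every cell thinned to 2000 UMIs, which weights cells equally, Nupr1 was at means of 0.218 and 0.196 UMIs per control and cocultured cell, close to the 0.222 of small intestinal cells, and below the 0.851 of large intestinal cells. Trp53inp1 was lower here too, at 0.0513 and 0.0295 against 0.0726 and 0.109. In the sections, fewer cells with a transcript and less transcript per cell cannot be told apart.

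A difference of 1 log2 unit over small intestinal Epcam-positive cells was reached upwards in control organoids by 4 of the 10 members, Gdf15 (3.72), Trib3 (3.47), Phlda3 (2.79) and Ddit3 (1.87). Nupr1 alone, at -1.31, reached it downwards. Among 9483 genes with a mean of at least 5 CPM, 11% were as much higher and 8.15% as much lower. In cocultured organoids 5 members were that much higher, the same 4 and Cdkn1a (1.01), and 2 were that much lower, Nupr1 (-1.46) and Trp53inp1 (-1.28). The background there was 10.1% higher and 9.98% lower of 9361 genes. Since the members were chosen with these values known, nothing is read from the counts. The p53 members summed to 378 CPM in control organoids and 213 CPM in the small intestinal cells, a log2 ratio of 0.83 (0.80 to 0.87). The integrated stress members summed to 359 and 306 CPM, a log2 ratio of 0.23 (0.20 to 0.26) in which the low Nupr1 offset the other 3. The median of all genes was 0.19, with 52.3% of genes below the sum, and in cocultured organoids the sum was at 0.06 against a median of 0.11. The integrated stress ratio of control organoids depended on the weighting: it was 0.035 after median-of-ratios scaling, -0.14 with cells of either source held to at most 10% mitochondrial UMIs, 1.01 when per-cell CPM values were averaged and 0.87 with cells thinned to 2000 UMIs.

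Restricting both sources to cells with a UMI of the proliferation marker Mki67 changed these differences unevenly. Mki67 was read at full depth, with medians of 73663.5 and 86295 UMIs in all organoid and 24418 in all small intestinal Epcam-positive cells. Mki67-positive cells were thus chosen at unlike sensitivity in the organoids and the tissue. Gdf15 was 2.68 (2.39 to 2.98) log2 units higher in Mki67-positive control organoid cells than in Mki67-positive small intestinal cells, and Trib3 3.01 (2.46 to 3.60). Phlda3 was at 2.68 (2.22 to 3.17). Ddit3 was only 0.64 (0.44 to 0.84) higher, and Cdkn1a 0.44 (0.36 to 0.52). In cocultured organoids the same ratios were 3.23 for Gdf15, 2.98 for Trib3, 2.56 for Phlda3, 0.87 for Ddit3 and 0.82 for Cdkn1a. Nupr1 was further below tissue than over all cells, at -2.60 (-2.71 to -2.49) in control and -1.80 (-1.87 to -1.73) in cocultured organoids. The integrated stress sum was on the other side of 0, at -0.28 (-0.33 to -0.23) and -0.21 (-0.25 to -0.17).

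**Figure D2:**
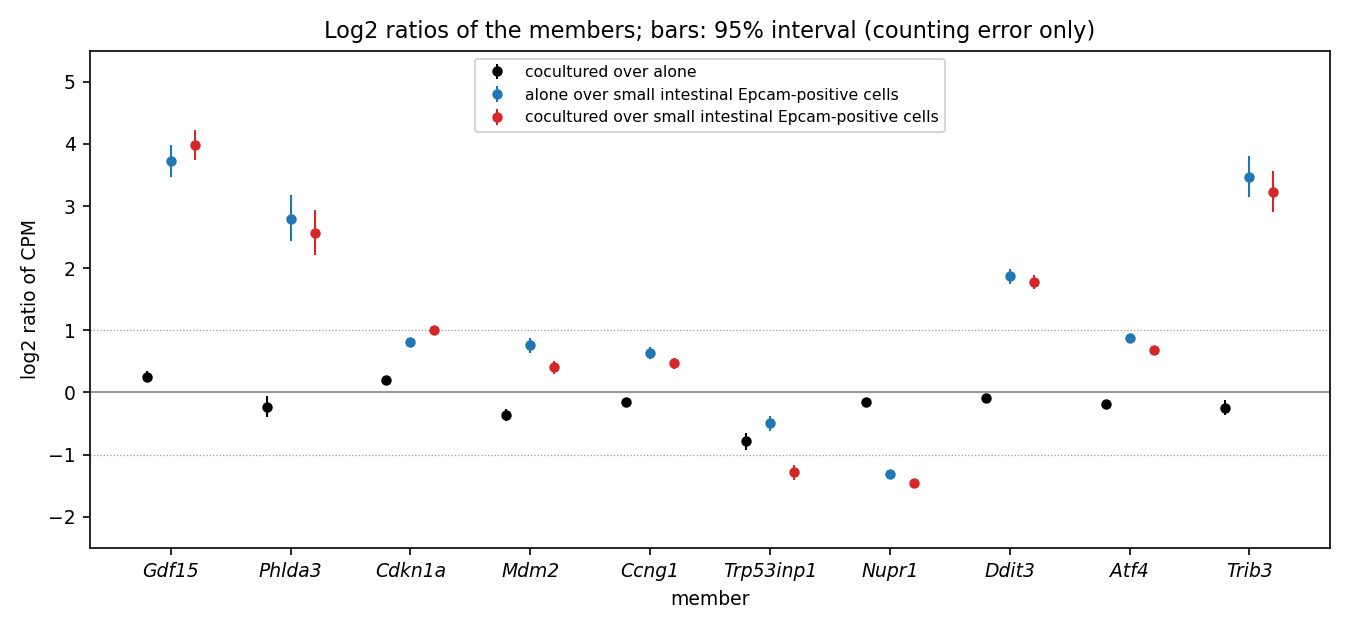
Log2 ratio of CPM of each member for cocultured over control organoids (black) and for control (blue) and cocultured (red) organoids over small intestinal Epcam-positive cells, with 95% intervals for counting error and dotted lines at 1 and -1. The black points lie between -0.79 (Trp53inp1) and 0.26 (Gdf15), and the coloured ones between -1.46 (Nupr1) and 3.98 (Gdf15).

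Other genes of the same pathways were taken from lists chosen with earlier results of these data known, so their counts are a description. They stand beside the same shares over all genes, 11% higher and 8.15% lower for control and 10.1% and 9.98% for cocultured organoids. Of 30 measured ATF4 and CHOP targets outside the members, 24 were at least 1 log2 unit higher in control organoids than in small intestinal Epcam-positive cells and 0 were as much lower. Their median log2 ratio was 1.77, against 0.19 over all genes. In cocultured organoids 22 were higher and 0 lower, with a median of 1.61 against 0.11. At the top were Stc2, a secreted glycoprotein, with log2 ratios of 4.74 in control and 4.53 in cocultured organoids, and Ero1l, an oxidase of protein folding that is also known as a hypoxia gene, with 4.03 and 3.65. At the bottom were Wars, a tryptophan tRNA synthetase, at -0.22 and -0.42, and the transcription factor gene Cebpg, at 0.07 and -0.08.

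Among 9 measured regulators of the response (8 in the cocultured comparison), Ppp1r15a, the phosphatase subunit that reverses eIF2 phosphorylation, was at 2.02 in control and 1.57 in cocultured organoids. Eif2s1, which encodes the phosphorylated eIF2 subunit, was at 1.49 and 1.57. No other regulator passed 1 log2 unit, and the lowest in control organoids were Dele1 (-0.09) and the kinase gene Eif2ak1 (0.00). The chaperones and folding genes of the endoplasmic reticulum had medians of -0.08 and -0.07, against 0.19 and 0.11 over all genes. Of 20 such genes 0 were at least 1 log2 unit higher in either organoid library, and Hspa5, the main chaperone, was at 0.66 and 0.56. Ern1, which encodes the sensor IRE1, was lowest, at -0.78 and -1.33, and Sel1l was next, at -0.54 and -0.87.

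The p53 lists were mixed. Of 24 measured p53 targets outside the members, 6 were at least 1 log2 unit higher in control organoids and 3 as much lower, with a median of 0.37 against 0.19 over all genes. The highest were Ddit4 (3.27), an inhibitor of mTOR that ATF4 and hypoxia also induce, and Pmaip1 (2.53), which encodes the death protein NOXA. The lowest were Trp53i11 (-2.21) and Tap1 (-2.0), a peptide transporter of antigen presentation. The counts were again 6 and 3 in cocultured organoids, with a median of 0.21 against 0.11. Of 8 regulators, the kinase gene Chek1 alone passed 1 log2 unit, at 1.06 in control organoids. Chek2 followed at 0.97, Mdm4 was lowest at -0.38 and Usp7 was at 0.05. Of 14 measured early response and heat shock genes, which mark cell dissociation, 2 were higher in control organoids, Ier3 (2.05) and Hspa1b (1.32), and in cocultured organoids Ier3 was higher (1.83) and Fosb lower (-2.24). Their medians were 0.45 and 0.23, against 0.19 and 0.11 over all genes. The part of dissociation in the members' levels was not tested.

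Between the cultures every member differed by less than 1 log2 unit when all cells were summed. Gdf15 was 0.26 (0.18 to 0.34) and Cdkn1a 0.20 (0.17 to 0.23) log2 units higher in cocultured organoids, and the other 8 members were lower. Trp53inp1 had the largest difference, -0.79 (-0.92 to -0.66), followed by Mdm2 at -0.36 (-0.45 to -0.26). Of all genes, 2.74% lay below Trp53inp1, 17.9% below Mdm2, 85.0% below Cdkn1a and 89.8% below Gdf15. The remaining 6 lay between -0.24 (Trib3) and -0.09 (Ddit3), where the median of all genes was -0.09. None of the 10 members passed 1 log2 unit, against 0.575% of 9041 genes that were higher and 1.69% that were lower by that much. The p53 members summed to a log2 ratio of 0.07 (0.05 to 0.10) and the integrated stress members to -0.17 (-0.20 to -0.14). For Gdf15 the direction depended on how cells were weighted, with a log2 ratio of -0.015 when per-cell CPM values were averaged and -0.18 when every cell was thinned to 2000 UMIs. The p53 sum also changed sides, to -0.051 when thinned, and was 0.18 with cells held to at most 10% mitochondrial UMIs. At that limit Ddit3 (0.052) and Trib3 (0.030) were no longer lower. Of the pathway lists, Plk2 (-1.12) of the p53 targets was the only gene of the p53, integrated stress or folding lists past 1 log2 unit. Fosb (-1.67) and Hspa1b (-1.09) of the dissociation genes were also lower in the cocultured library, and their part in the members' differences was not tested.

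The members were spread over cells very unequally. Cells were thinned to 10000 UMIs each, which kept 450 control and 919 cocultured cells and left out 88 and 109 shallower ones. Nupr1 was then seen in 17.1% (13.7 to 20.9) of the control cells and 14.7% (12.5 to 17.1) of the cocultured ones. Its mean of 1.10 and 0.753 UMIs per cell would have reached 66.8% and 52.9% of cells if UMIs fell on cells at random. Its variance was 19.7 and 15 times its mean, and before thinning 50% of its UMIs lay in 9 of 538 control and 18 of 1028 cocultured cells. Cdkn1a was seen in 60.4% (55.8 to 65.0) and 64.4% (61.2 to 67.5) of thinned cells, with a variance 7.86 and 10.0 times the mean. Ddit3 was seen in 25.6% and 25.4% of cells with a variance 7.14 and 9.23 times the mean. A single cocultured cell held 575 Ddit3 UMIs, 11.8% of the library's, and without the top cell of each library its log2 ratio between cultures was -0.18.

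For Gdf15 the shares were 20.2% (16.6 to 24.2) in control and 24.6% (21.8 to 27.5) in cocultured organoids, with a variance 4.55 and 3.78 times the mean. Unthinned, it had a UMI in 49.6% and 60.0% of cells. No organoid cell type that should lack the members was at hand to measure free RNA. Paneth markers gave at least 1 UMI in each of the 538 control cells and in 1014 of the 1028 cocultured ones, and enterocyte markers in 538 and 1027. The part of free RNA in the organoid shares and in the co-detection of members was therefore not tested, and a cell with a UMI is not read as a cell that expresses the gene. Atf4 was the most evenly spread of the abundant members, seen in 82.7% (78.8 to 86.1) and 76.7% (73.8 to 79.4) of cells with a variance 3.06 and 2.22 times the mean. Mdm2 and Ccng1 came close to random counting, with variances of 1.39 and 1.51 times the mean in control and 1.2 and 1.60 in cocultured cells. Trib3 was seen in 18.9% and 14.1%, Trp53inp1 in 16.4% and 12.6%, and Phlda3 in 7.78% and 8.38% of cells, with variances from 1.35 to 2.21 times the mean.

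At 2000 UMIs per cell the organoids could be set beside tissue. Gdf15 had a UMI in 9.45% (7.0 to 12.4) of 487 control and 9.46% (7.70 to 11.5) of 983 cocultured cells. It had one in 0.40% (0.161 to 0.822) of 1750 small and 0.526% (0.337 to 0.781) of 4566 large intestinal Epcam-positive cells. Trib3 was seen in 5.34% and 3.87% of organoid cells, against 0.514% and 0.110% of the tissue cells, and Ddit3 in 11.7% and 11% against 3.6% and 3.04%. Nupr1 was seen in 10.7% and 8.65% of organoid cells, with 12.3% in small and 30.1% in large intestinal cells. As a check on free RNA in the tissue libraries, Epcam-negative, Ptprc-positive cells (immune cells, medians of 3009 and 4025 UMIs) had 0 UMIs of Gdf15 and of Trib3. That was 0 of 360 small intestinal cells, which allows a share of up to 0.833% (3 cells of that total), and 0 of 221 large intestinal cells, which allows up to 1.36%. The shares of Gdf15 and Trib3 in the Epcam-positive tissue cells lie below those limits, so they cannot be told from background. The immune cells had a UMI of Ddit3 in 5.28% and 10.4% of cells and of Atf4 in 27.5% and 19.5%, above the Epcam-positive cells (20.8% and 15.6% for Atf4). Whether these UMIs are the immune cells' own or free RNA was not tested, so the tissue shares of Ddit3 and Atf4 cannot be told from background either. The same holds for Mdm2 (7.22% and 9.05% of immune against 4.51% and 4.93% of Epcam-positive cells), Ccng1 (6.39% and 9.05% against 4.57% and 6.79%) and Trp53inp1 (7.5% and 10.4% against 6.0% and 7.62%), in small intestine for Phlda3 (0.278% against 0.229%) and in large intestine for Cdkn1a (9.5% against 9.68%). Large intestinal Phlda3, at 1.82% of Epcam-positive cells, lay inside the interval of the immune cells (0.0115% to 2.50%).

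The members were seen together in single cells more often than the product of their separate shares. Of 45 pairs, 42 in control and 41 in cocultured organoids were above the product, and in 20 of each the 95% interval of the observed share lay wholly above it, with 0 wholly below. Over all pairs of other genes seen at shares within the members' range, 53.2% of 27889246 pairs in control and 55.3% of 22906296 in cocultured organoids were above the product, and in 2.40% and 4.21% the interval lay wholly above it. The members were chosen with earlier results known, so nothing particular to them is read from the counts. The median ratio of observed to product was 1.60 in control and 1.5 in cocultured cells for the 6 pairs of integrated stress members. It was 1.30 and 1.24 for the 15 pairs of p53 members, and 1.35 and 1.21 for the 24 pairs across the arms. Pairs of 1 library share cells and depth, so they are no replicates of each other.

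Ddit3 and Trib3 were the pair with the highest ratio. Both were seen in 60 control cells where the product gave 21.7, and in 80 cocultured cells where it gave 33.0, ratios of 2.76 and 2.43. Over cells, Spearman's rho of their thinned counts was 0.55 (450 cells) and 0.37 (919 cells). The ratio was 2.20 and 2.25 for Trib3 with Nupr1, 2.39 and 1.94 for Trib3 with Gdf15, and 1.99 and 1.96 for Gdf15 with Nupr1. Trp53inp1, a p53 target, was also seen with Trib3 above the product, at 2.07 and 1.83. Cdkn1a, present in most cells, had little room for a high ratio, yet its counts went with those of Ddit3 (rho 0.48 and 0.46). Ccng1 stood apart. Its 9 ratios ran from 0.854 to 1.72 in control and from 0.856 to 1.31 in cocultured cells, and Phlda3 in control cells was its only partner whose interval lay above the product. Phlda3 in turn had Ccng1 as its only such partner in control cells, and Gdf15 and Mdm2 in cocultured cells.

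**Figure D3:**
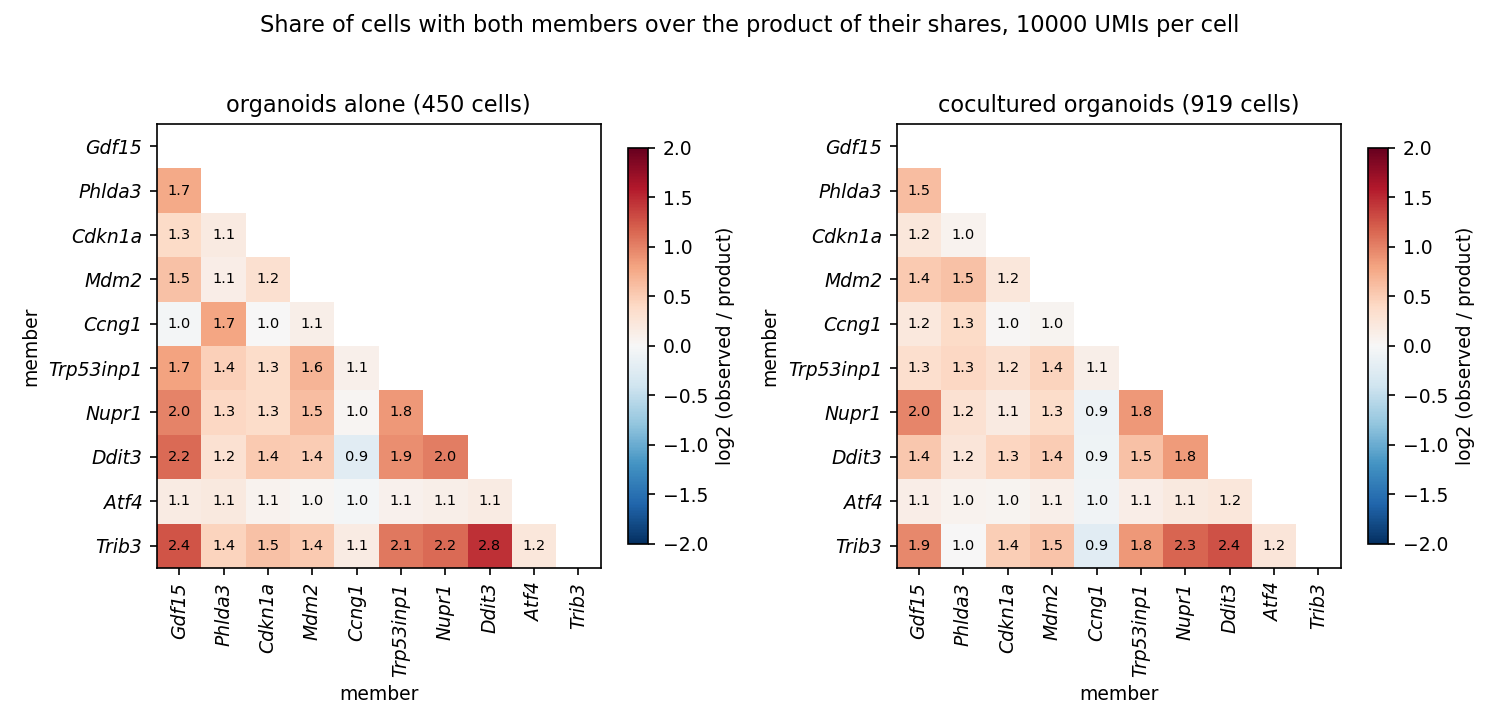
Ratio of the share of cells in which both members were seen to the product of their separate shares, for each of 45 pairs in 450 control (left) and 919 cocultured (right) organoid cells thinned to 10000 UMIs; colours give the log2 of the ratio. Ddit3 with Trib3 is highest in both, at 2.76 and 2.43, and pairs of Ccng1 run from 0.854 to 1.72 in control and from 0.856 to 1.31 in cocultured cells.

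Counting the members in each cell showed the same. Control cells had a mean of 3.09 of the 10 members (SD 1.93 over cells) and cocultured cells 2.95 (SD 1.74), where independent members with the same shares would give SDs of 1.29 and 1.27. At least 6 members were seen in 62 control cells, 13.8% against 3.49% for independent members, and in 84 cocultured cells, 9.14% against 2.59%. Cells with no member were 5.33% of the control and 4.46% of the cocultured library, against 1.03% and 1.46%. No cell showed all 10, and at least 9 were seen in 5 control cells and 1 cocultured cell. The summed p53 counts went with the summed integrated stress counts at rho 0.50 and 0.42. Depth and quality moved with them: against the cell's UMIs before thinning, rho was -0.36 and -0.31 for the p53 sum and -0.26 and -0.15 for the integrated stress sum. Against the mitochondrial share it was 0.17 and 0.34 for the p53 sum and 0.08 and 0.18 for the integrated stress sum. The part of depth and mitochondrial share in the co-detection was not tested.

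**Figure D4:**
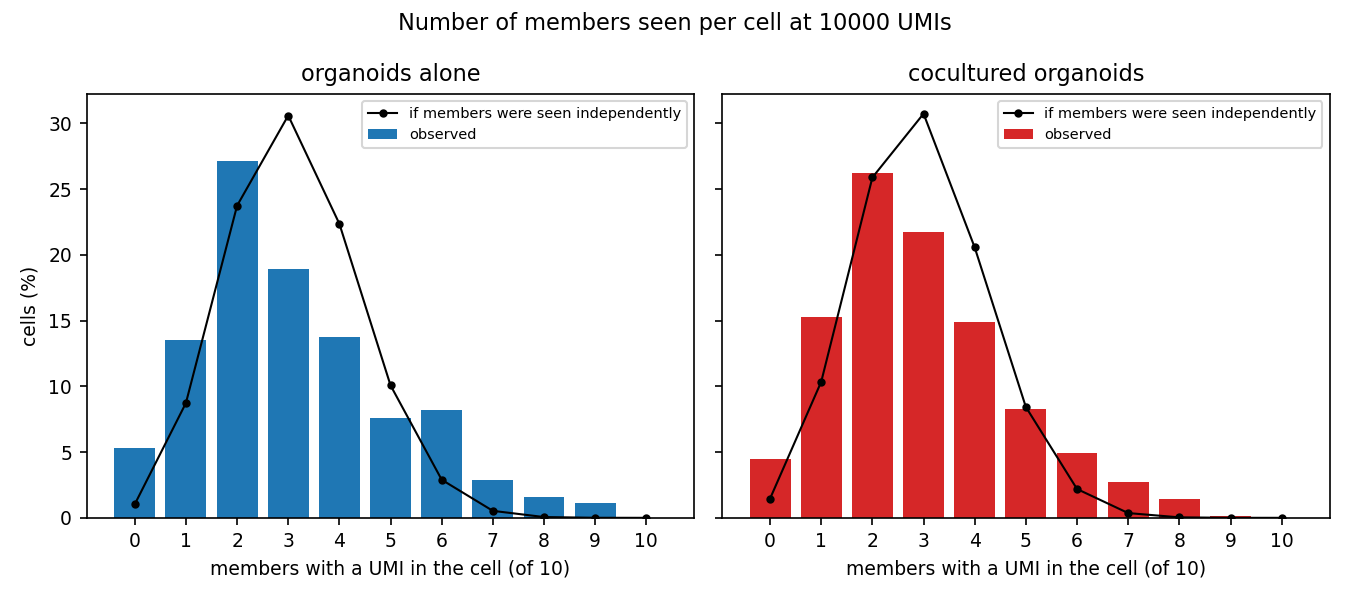
Percentage of cells by the number of members (of 10) with a UMI in cells thinned to 10000 UMIs, for control (left) and cocultured (right) organoids; the black line gives the percentages if members with the same shares were seen independently. The bars are wider than the line, with 13.8% of control and 9.14% of cocultured cells at 6 or more members.

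Cells with a UMI of the proliferation marker Mki67 held less of most members, but not of Phlda3 and Ccng1. Cells thinned to 10000 UMIs were divided by a UMI of Mki67 into 182 with and 268 without in control, and 379 with and 540 without in cocultured organoids. With Mki67, Ddit3 was lower by log2 ratios of -3.07 (-3.67 to -2.52) in control and -2.59 (-2.99 to -2.22) in cocultured cells. For Cdkn1a they were -2.16 and -2.40, for Trib3 -1.95 and -2.33, for Nupr1 -2.02 and -1.43, and for Trp53inp1 -1.58 and -1.5. Gdf15 (-0.58 and -0.66), Mdm2 (-0.73 and -0.76) and Atf4 (-0.58 and -0.36) were lower by less. Phlda3 was higher in Mki67-positive cells, by 1.12 (0.23 to 2.04) and 0.76 (0.14 to 1.38). Ccng1 was at 0.59 (0.18 to 1.0) and 0.29, the latter with an interval from -0.02 to 0.61.

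Both libraries were clustered together without the members and their pathway lists, which gave 14 clusters, of which 7 took a name from their markers and 7 stayed unnamed. The unnamed clusters 1 and 12 had medians of 1644 and 8968 UMIs per cell, far below the others, and cluster 12 was led by gene models such as Gm10800 and the RNA gene Rmrp. It had the highest level of 8 members in control and 4 in cocultured organoids, such as 286 and 215 CPM of Gdf15 and 751 and 726 CPM of Atf4. It held 4.65% of control and 2.72% of cocultured cells, and at most 6.94% of any member's UMIs (Nupr1 in control). Without these clusters the log2 ratios of the sums between cultures were 0.09 for the p53 and -0.15 for the integrated stress members.

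Levels were compared in clusters with at least 20 cells in the library, which left out clusters 8, 11 and 13 in control. Apart from clusters 1 and 12, 9 members in control (9 clusters) and 6 in cocultured organoids (12 clusters) were highest in cluster 6, an unnamed cluster led by Cnfn, Dynap and Ctse, with Ly6d and Sprr2f among its top genes. The exceptions were Ccng1 in both, and Phlda3, Mdm2 and Trp53inp1 in cocultured organoids. Cdkn1a was at 790 CPM there in control and 1294 CPM in cocultured organoids, Ddit3 at 261 and 530 CPM, Nupr1 at 323 and 480 CPM, and Gdf15 at 121 and 176 CPM. With 81 cells, cluster 6 was 15.1% of the control library, and it held 68.8% of its Ddit3, 66.2% of its Nupr1, 54.0% of its Trib3, 48.5% of its Cdkn1a and 44.2% of its Gdf15 UMIs. With 39 cells it was 3.79% of the cocultured library, and held 33.2%, 24.3%, 20.1%, 15.4% and 12.0% of the same. Ccng1 was at 50.2 and 37.3 CPM there, near the 45.4 and 41.4 CPM of all other cells. With 1 library each, a difference in cluster size between the cultures cannot be told apart from a difference between the libraries.

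Inside and outside cluster 6, the comparison between cultures read differently from that over all cells. The cluster was picked for its high member levels after these were seen. It held more of the control than of the cocultured UMIs of these members, such as 66.2% against 24.3% for Nupr1. For members high in it, removing it lowers the control values more, which by itself raises the ratios outside it. Outside cluster 6 (457 control and 989 cocultured cells), Nupr1 was higher in cocultured organoids by 0.84 (0.74 to 0.94) log2 units, Ddit3 by 0.83 (0.72 to 0.95), Gdf15 by 0.74 (0.64 to 0.84), Cdkn1a by 0.74 (0.70 to 0.78) and Trib3 by 0.38 (0.21 to 0.55). Inside it the same 5 were higher too, Ddit3 by 1.02 (0.92 to 1.12), Cdkn1a by 0.71, Nupr1 by 0.57, Gdf15 by 0.54 and Trib3 by 0.50. The makeup outside cluster 6 also differed between the libraries, with 35 control and 98 cocultured cells in Enterocyte-like cluster 2, 18 and 91 in Enterocyte-like cluster 8, 8 and 74 in Cycling-like cluster 11, and 5 and 22 in the Enteroendocrine-like cluster, and its part in these ratios was not tested. Trp53inp1 and Ccng1 were lower both outside (-0.39 and -0.13) and inside (-0.91 and -0.43). For Phlda3, Mdm2 and Atf4 both intervals held 0. The median of all genes was -0.10 outside and -0.12 inside, and 44.6% and 25.5% of genes lay below Ccng1. Outside cluster 6 the p53 members summed to 258 CPM in control and 358 CPM in cocultured organoids, and the integrated stress members to 240 and 279 CPM. Over all cells, by contrast, 8 of the 10 members were lower in the cocultured library, or 6 where cells were held to at most 10% mitochondrial UMIs. In Mki67-positive cells alone, whose cells were chosen by another gene, Nupr1 was higher in cocultured organoids by 0.80 (0.69 to 0.91), Gdf15 by 0.55 (0.44 to 0.66), Cdkn1a by 0.38 (0.33 to 0.44) and Ddit3 by 0.23 (0.10 to 0.37), while Trp53inp1 (-0.86), Mdm2 (-0.29), Ccng1 (-0.15) and Atf4 (-0.09) were lower. The median of all genes was -0.08 there, so Atf4 lay close to it, with 48.1% of genes below, and Ccng1 had 39.0% below. The intervals of Trib3 and Phlda3 held 0. These sums weight deep cells more. At 10000 UMIs per cell, with Mki67 read at that depth, Nupr1 was at 39.0 CPM in control and 37.7 CPM in cocultured cells. Cdkn1a was at 98.4 and 96.0 CPM, Ddit3 at 15.9 and 16.9 CPM and Gdf15 at 33.5 and 38.5 CPM. The higher Nupr1 and Cdkn1a were thus not seen at equal depth, while Trp53inp1, Mdm2, Ccng1 and Atf4 were lower there too.

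Outside cluster 6, which was removed from the organoids alone for its high levels, Gdf15 was at 25.2 and 42.1 CPM and Trib3 at 10.4 and 13.6 CPM, above the 2.93 and 1.76 CPM of all small intestinal Epcam-positive cells. For the other members nothing is read from this comparison, since the removal itself lowers the organoid values.

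**Figure D5:**
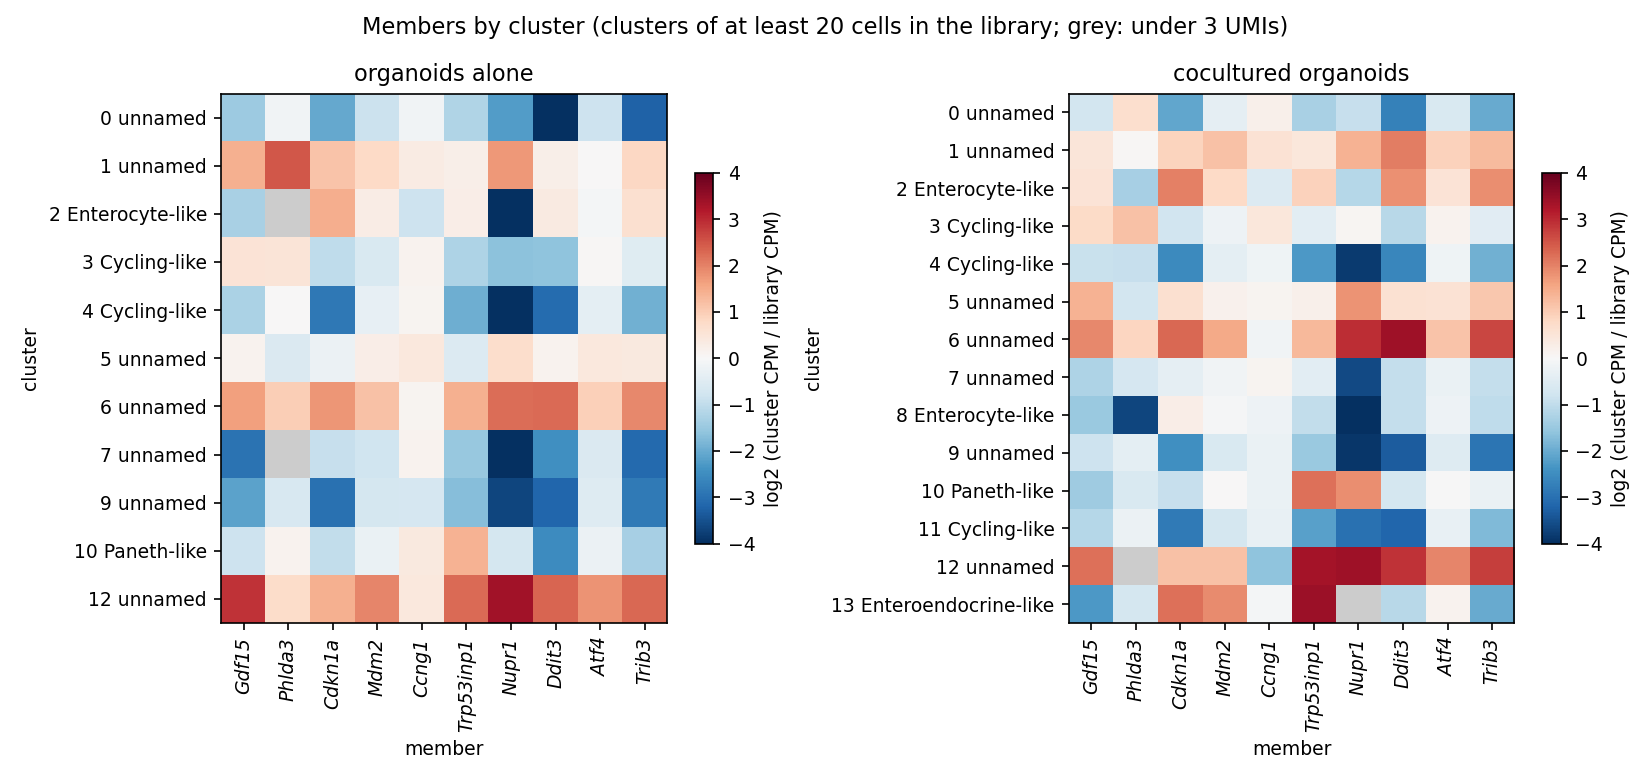
Log2 ratio of each member's CPM in a cluster to its CPM in the whole library, for clusters with at least 20 cells in control (left) or cocultured (right) organoids; grey marks fewer than 3 UMIs. Clusters 6 and 12, and cluster 1 of low UMI counts, are red for most members, and clusters 0, 4 and 9 are blue for Cdkn1a, Ddit3 and Trib3.

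The named clusters gave some members a profile of their own. In Enterocyte-like cluster 2 Cdkn1a was at 627 and 1070 CPM and Ddit3 at 68.9 and 178 CPM in control and cocultured organoids, while Phlda3 was at 0 UMIs in control. Enterocyte-like cluster 8, compared in cocultured cells alone, had less, with Cdkn1a at 317 CPM and Ddit3 at 26.3 CPM. Trp53inp1 was at 50.9 and 52.2 CPM in the Paneth-like cluster, above most clusters, and at 120 CPM (96.1 to 148) in the 22 cocultured Enteroendocrine-like cells. Those cells also had Cdkn1a at 1207 CPM and Mdm2 at 95.3 CPM, with Gdf15 at 9.53 CPM and Nupr1 at 1 UMI, the lowest values of both among the cocultured clusters, though the intervals of Gdf15 (3.83 to 19.6 CPM, 7 UMIs) and Nupr1 (0.0345 to 7.58 CPM) reach those of other clusters. Nupr1 in the Paneth-like cluster was at 42.1 CPM in control and 225 CPM in cocultured organoids. In Cycling-like cluster 3, with Cdc25b and Cdc20 among its top genes, Gdf15 was at 56.7 and 78.2 CPM, against 16.0 and 24.9 CPM in Cycling-like cluster 4, led by histone genes. Ddit3 and Trib3 were lowest in control in cluster 0, led by the replication gene Cdc6, at 3.08 and 2.06 CPM. In cocultured organoids they were lowest in cluster 9, with Ccne1 and E2f7 among its top genes, at 5.03 and 2.15 CPM. The intervals of these lowest values overlap those of other clusters, such as Trib3 in control cluster 7, at 2.25 CPM (0.731 to 5.26).

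Counted within clusters of at least 50 thinned cells, Ddit3 and Trib3 were seen together 1.24 times as often as the product in control (212 cells in 3 clusters) and 1.34 times in cocultured cells (783 cells in 9 clusters), against 2.76 and 2.43 over all cells. For Gdf15 and Trib3 the ratios within clusters were 1.2 and 1.41, against 2.39 and 1.94 over all cells. These ratios have a low ceiling where both members are common, and in control 36 of the 37 cells with Ddit3 and Trib3 lay in cluster 6, where the product already gave 29.4 of 78 cells. The counts of that pair went together there, with rho of 0.39, the highest of the 3 control clusters. The median rho over clusters was 0.16 in control and 0.12 in cocultured cells, below the 0.55 and 0.37 over all cells. Ratio and rho were thus both lower within clusters, and the part of differences between clusters in the co-detection was not tested. For Cdkn1a and Ddit3 the ceiling is lower still in control cluster 6 and cocultured cluster 2, where nearly every cell had Cdkn1a. Their counts went together within some clusters, with rho of 0.39 in control cluster 6 and 0.33 and 0.37 in cocultured clusters 2 and 5 (97 and 72 cells). The median rho over clusters was 0.06 in control and 0.08 in cocultured cells, against 0.48 and 0.46 over all cells. For Gdf15 and Nupr1 the ratio within clusters was 1.05 in control and 1.69 in cocultured cells. Phlda3 and Ccng1 kept a ratio of 2.16 in control, where 11 cells had both and 5.10 were given by the product, and 1.24 in cocultured cells.

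The genes whose counts went most closely with the members were ranked over 4412 candidates, by the lower of the 2 libraries' rho over thinned cells. These values share cells and libraries and are descriptions. For the p53 sum, Ndrg1, a gene known from hypoxia and differentiation, led with rho of 0.62 in control and 0.55 in cocultured cells. Cyp3a13 (0.55 and 0.54), Ero1l (0.54 and 0.53), Creb3l3 (0.53 and 0.51), Areg (0.54 and 0.50), Lgals3 (0.51 and 0.51) and Krt20 (0.55 and 0.49), a keratin of differentiated epithelium, came next, with 2200002D01Rik, Tmsb10 and Rhoc. For the integrated stress sum, Ero1l led with 0.55 and 0.47, before Areg (0.49 and 0.47), which encodes the growth factor amphiregulin, Ndrg1 (0.53 and 0.45), Atf3 (0.48 and 0.41) and Tmsb10. Ahnak, Slc2a1, Gfpt1, Efna1 and Lgals3 followed, and 5 genes were on both lists. The median rho over all candidates was between -0.06 and -0.03.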

How the data were processed

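The deposited files hold raw UMI counts per gene and barcode, not normalized by the authors. Per the file headers, Cell Ranger 6.0.1 made the single-cell counts and Space Ranger 1.2.1 the Visium counts, and the build was mm10, per the submitters' processing notes. The kit's end of capture was not given in the sources used here, and UMI counts were not scaled by gene length, so levels are compared between libraries and not between genes. The members and all gene lists were chosen with earlier results of these data known.

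Cells were kept from 500 detected genes upwards and up to 20% mitochondrial UMIs, then those with the highest Scrublet scores were removed (0.8% per 1000 cells, 2 control and 9 cocultured organoid cells). Spots needed 500 UMIs. CPM used all UMIs of a group. Ratios took 3 in place of any smaller count. Intervals (95%) were exact Poisson for CPM, Clopper-Pearson for shares and exact for ratios of 2 counts, and UMIs that share a cell make them too narrow. Thinning drew UMIs once at random (seed 0).

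Clustering in scanpy 1.11.5 used 2000 variable genes, 30 components, 15 neighbours and Leiden resolution 1, without members, pathway lists, mitochondrial, ribosomal protein and sex genes. A name needed at least 3 markers that were higher in the cluster, and a cluster led by genes of another kind stayed unnamed. A cluster that was shallow, or that stem cell markers fitted best, also stayed unnamed if none of its best markers was among its top 10 genes. Cluster 9, with 4 stem cell markers higher, was left unnamed in this way. Named genes were the 10 members, the 2 highest and 2 lowest genes of each list, and the 10 most like genes for each sum; list genes beyond these and cluster genes were named after their values were seen. The ratio code was tested on simulated data. Other filters, weights, depths and scalings were tried for the sums, the members between cultures, the median co-detection ratio, the range over clusters and the shares of all genes (closing part), and not for the pathway lists, the Mki67 and cluster 6 splits, the ratios within clusters or the most like genes. The Mki67 split between cultures was an exception, given at full depth and with thinned cells.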

Additional observations from a re-analysis of the deposited data

How the results depend on the processing

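Log2 ratios of the summed members moved with the filters and weights as follows. For cocultured over control organoids the p53 sum (0.07) was 0.11 without the mitochondrial filter, 0.18 at 10% mitochondrial UMIs, 0.034 as the mean of each cell's CPM, 0.16 after median-of-ratios scaling, 0.10 without the top cell of each gene, and -0.051, the opposite direction, with cells thinned to 2000 UMIs. The integrated stress sum (-0.17) was -0.13, -0.076, -0.28 and -0.085 under the first 4 of these and -0.23 when thinned. For control organoids over small intestinal Epcam-positive cells the p53 sum (0.83) was 0.98 without the filter, 0.66 at 10%, 1.01 as the mean of cells, 0.97 without mitochondrial and ribosomal protein genes, 0.64 scaled and 1.10 thinned. The integrated stress sum (0.23) was 0.37, -0.14 (the opposite direction), 1.01, 0.37, 0.035 and 0.87 under the same, and 0.19 without the clusters of low UMI counts, an alternative added after seeing the data. The cause of these shifts was not tested. For single members between cultures, 62 of the 90 alternative values stayed within the interval of the value reported, 24 lay outside it in the same direction, and 4 changed direction: Gdf15 (-0.015 as the mean of cells, -0.18 thinned), Ddit3 (0.052) and Trib3 (0.030), the last 2 at 10% mitochondrial UMIs.

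The median ratio of observed to product over 45 pairs was 1.31 in control and 1.24 in cocultured cells. It was 1.45 and 1.31 at 5000 UMIs, 1.18 and 1.14 at 20000 UMIs, 1.31 and 1.2 without the mitochondrial filter, 1.34 and 1.24 at 10%, and 1.33 and 1.23 without the clusters of low UMI counts. The median over members of the log2 ratio of highest to lowest cluster was 4.48 and 4.98, and 3.94 and 4.43 at Leiden resolution 0.5 and 4.68 and 5.31 at 2. With a mean of at least 20 CPM, the share of genes lower by 1 log2 unit than in small intestinal cells was 5.37% for control and 6.05% for cocultured organoids. No paired analysis was possible because each culture and tissue had 1 library.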
